A study of Bos taurus with 18 samples.

Results

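DNAH2 encodes a heavy chain of axonemal dynein, the motor that bends the sperm tail. Every position listed for 18 Holstein bulls inside the gene or within 2000 bp of it was taken, which gave 2420 cytosine positions of the 40640718 that the files list. On the UMD 3.1 build the gene lies at chr19:28025433-28134630 and spans 109198 bp. It is 1 of 25 genes that the study fine-mapped for gestation length, and a fine-mapped variant, chr19:28045137, lies 19704 bp inside its lower-coordinate end. The strand and the exons of the gene on this build were not used here, so its ends are named by coordinate.

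The samples were semen of adult bulls, fertile and of matched age, and methylation was read by whole genome bisulfite sequencing, which leaves methylated cytosines and converts the others. Except for sire conception rate, the groups are bulls of high or low genetic merit for a trait. For sire conception rate the labels say only high or low, and the study's text does not use these groups. There was no treatment. There were 4 high and 4 low bulls for gestation length (GL), and 3 high and 3 low bulls each for the traits body depth (BDE), sire calving ease (SCE), and the conception rates of sires (SCR) and of cows (CCR). H and L in a bull's name are part of the name and match its group only for SCR. For GL the high bulls were H03, H09, L03 and L05 and the low bulls H02, H05, L01 and L07. The SCE groups held H03, L02 and H07 (high) and L09, H01 and H06 (low), and the BDE groups L08, H02 and L03 (high) and L02, H05 and H09 (low). The CCR groups held L06, H08 and H09 (high) and L09, H06 and L08 (low), and the SCR groups H01, H02 and H03 (high) and L01, L02 and L03 (low). Several bulls stand in more than 1 trait, so the 5 comparisons are not independent, and H04 and L04 had no group. Each bull is 1 library from semen, a sample that could also hold a few somatic cells, and markers of these were not examined here.

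Axonemal dynein heavy chains are the motor subunits of the arms that slide the doublet microtubules of cilia and flagella past each other. DNAH2 belongs to the inner arm, and mutations of it are known in men with malformed sperm tails. A mature sperm no longer transcribes the gene, so its methylation records the state left by spermatogenesis. In mammals, the bodies of genes are usually methylated and the CpG-rich starts of active genes are usually not.

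DNAH2 was a methylated gene with unmethylated ends. Of its 1588 CpGs, 1297 had a mean over the bulls above 80%, 120 lay between 20% and 80%, and 171 lay under 20%. Most of the low CpGs sat in 4 stretches where the running median of 5 CpGs stayed under 80%, a rule set after the profile had been seen. The 4 stretches, called low domains here, held 241 CpGs, and the other 1347 CpGs averaged 94.7%. Of those 1347 CpGs, 1293 were above 80%, which is 96.0%.

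**Figure D1:**
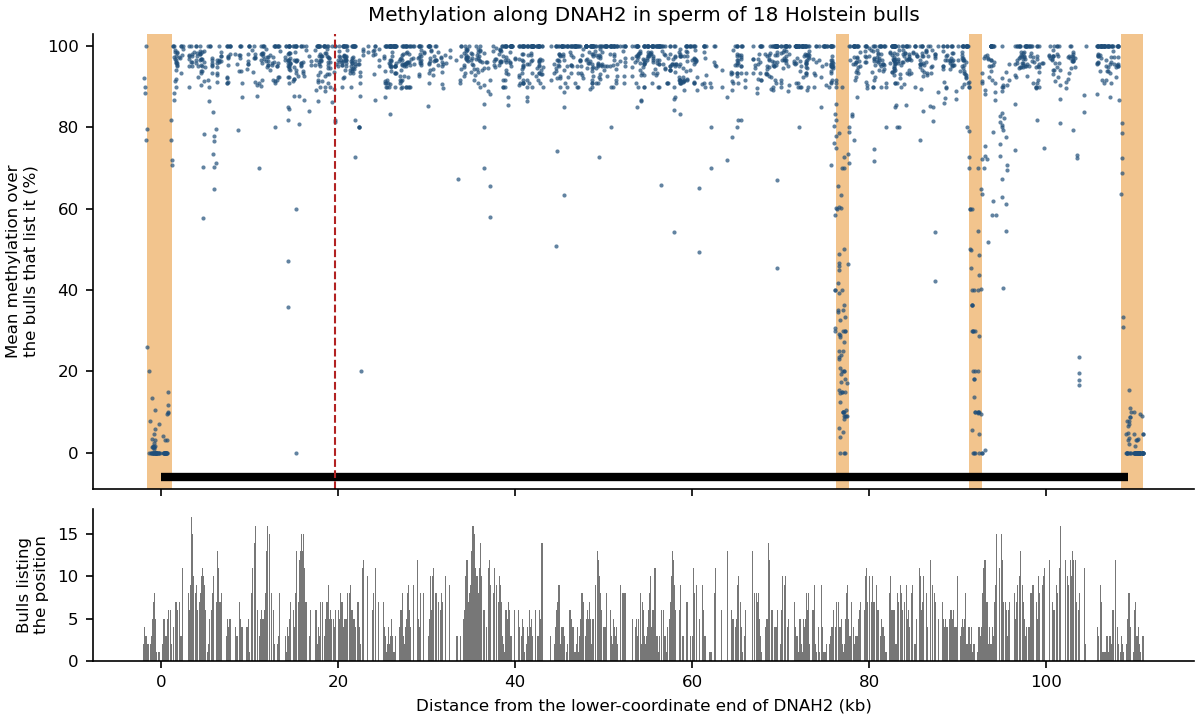
Methylation along DNAH2. Upper panel: each point is a position, at its distance in kb from the lower-coordinate end of the gene, with its mean percent methylation over the bulls that list it, the shaded spans are the 4 low domains, the black bar is the gene and the dashed line the fine-mapped variant. Lower panel: number of bulls that list the position, at most 17. CpGs outside the domains average 94.7%, with lower stretches such as the 3000 bp after the third domain, at 84.6%.

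The first domain covered the lower-coordinate end of the gene, chr19:28023872-28026685, with 57 CpGs that averaged 6.34%. Of these, 53 were under 20%. Among the 12 bulls with at least 5 listed positions there, the mean ran from 0.714% to 46.7% with a median of 6.35%, and the highest value was that of L01, which listed 8 positions. The fourth domain covered the other end, chr19:28133847-28136358, with 84 CpGs that averaged 6.94%, and 77 of them were under 20%. In 13 bulls it ran from 0% to 17.1%, with a median of 3.50%. The medians of both ends were thus far below the level of the body.

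Low methylation was also found past the flanks, though not without a break at the lower end. There 5 listed positions of the flank, between its outer edge and the first domain, averaged 89.5%. Between 2000 and 4000 bp below the gene 23 positions averaged 10.7%, and between 2000 and 4000 bp above it 16 positions averaged 9.58%. The means of the bulls ran from 0% to 100% in the lower of these windows and from 0% to 25% in the upper. Over the whole of 2000 to 10000 bp below the gene, 90 positions averaged 67.4%. Further out above the gene, the means were 27.4% over 23 positions from 4000 to 6000 bp, 84.0% over 22 positions from 6000 to 8000 bp and 20.2% over 78 positions from 8000 to 10000 bp. High and low windows thus alternated there. On the newer ARS-UCD2.0 annotation, used here only for the order of genes, DNAH2 lies between EFNB3, which encodes an ephrin ligand, and KDM6B, which encodes a histone demethylase.

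The other domains lay inside the gene and were partly methylated. The second, chr19:28101680-28103171, had 59 CpGs in 1492 bp and averaged 32.2%, with 22 CpGs under 20% and 36 between 20% and 80%. Among the 9 bulls with at least 5 listed positions, means ran from 17.95% in H01 to 55.3% in L04, with H08 at 38.3%, L05 at 31.8% and L01 at 29.96%. The third, chr19:28116700-28118199, had 41 CpGs in 1500 bp and averaged 31.99%. In its 6 bulls with at least 5 positions, means ran from 16.7% in L01 to 43.2% in H04. All these means lay above the medians of the end domains and below the level of the body.

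Single CpGs within these domains spanned a wider range than the bulls' means. In the third domain, position 28118157 averaged 93.3% in 4 bulls, and position 28118199, at its upper edge, read 0% in all 8 bulls that listed it. Position 28117777 read 0% in 4 bulls and position 28117773 averaged 43.8% in 4 bulls. In the second domain, position 28102888 averaged 17.2% in 8 bulls and position 28102998 averaged 46.3% in 9 bulls. In the 1000 bp on each side, 86.0% of 164 values around the second domain and 78.1% of 247 values around the third were above 80%.

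**Figure D2:**
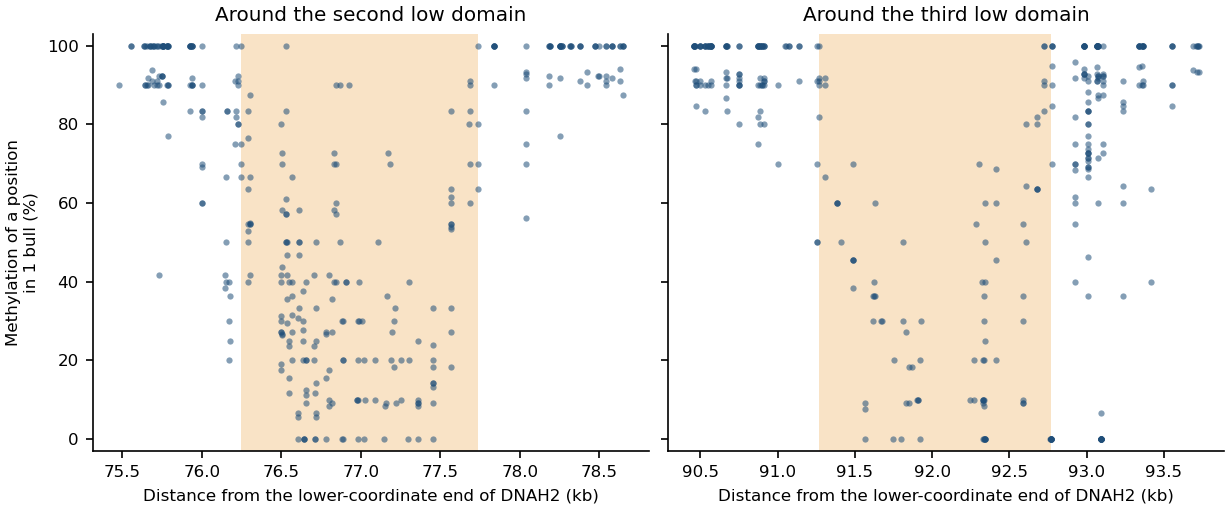
The partly methylated low domains inside the gene (shaded) with 1000 bp on each side. Each point is the percent methylation of a position in 1 bull, against the distance in kb from the lower-coordinate end of DNAH2. Values in the shaded spans run from 0% to 100%, while most values outside lie above 80%.

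Outside the domains, 9 CpGs had a mean under 50%. Position 28118526 averaged 0.606% in 11 bulls, with 10 of them at 0% and H08 at 6.67%, although its 4 neighbouring CpGs averaged 86.8%. Only 1 strand was listed there. Whether a sequence variant lies at it, or at position 28118199, was not tested. The neighbouring CpGs 28129099 and 28129134 averaged 16.2% and 22.4% in 9 bulls each. Values at the second of these ran from 0% to 54.5%. At 10 reads, a reading of 0% is compatible with up to 30.8% methylation (exact binomial 95% interval, counting error only).

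The middle of the body varied little between bulls. Divided into 10 equal parts, the body had in parts 2 to 7 bull means averaging 93.8% to 96.2%, with an SD over bulls of 1.40 to 2.55 points. Part 8, which holds most of the second domain, averaged 87.0% ± 11.2 (SD, n = 18), and part 9, which holds the third, averaged 83.6% ± 5.16 (SD, n = 18). Parts 1 and 10, which touch the end domains, averaged 87.5% ± 6.64 and 89.2% ± 4.43 (SD, n = 18 each). Of the 58 tiles of 2000 bp that overlap the region, 43 averaged above 90%, 3 under 10% and 12 between.

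The tile with the fine-mapped variant, chr19:28044001-28046000, was in the fully methylated part. It averaged 95.7% ± 3.05 (SD, n = 18), with a lowest bull of 89.4%, a median of 95.9% and a highest of 100%. The nearest listed CpG begins 43 bp below the variant, at position 28045094. With both strands averaged, it had a median of 97.9% in 4 bulls and ran from 39.4% in L06 to 100%. On the other side, the CpG 57 bp above the variant averaged 95.5% in 6 bulls. This tile was called for none of the 5 traits, and its smallest q was 0.067, for SCR.

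Among the 18 tiles that every bull covered, chr19:28118001-28120000 had the lowest mean and the widest spread, 68.7% ± 19.01 (SD, n = 18), from 20% in H02 to 86.1% in H08. The tile chr19:28120001-28122000 averaged 81.0% ± 7.25 and chr19:28030001-28032000 averaged 88.1% ± 7.06. The tile chr19:28112001-28114000 averaged 89.3% ± 8.36, the second widest spread. These 4 tiles make up the lowest 3 and the widest 3 by that rule.

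Seen per bull, DNAH2 averaged 88.7% ± 1.92 (SD, n = 18). The lowest bull was L06 at 84.1%, the median was 88.5% and the highest bull was L09 at 91.8%. Each bull's mean was above the mean of its own whole file, by 3.13 to 11.9 points and by 6.97 points on average. The difference passed the exact sign-flip test over bulls (two-sided, n = 18, exact p = 7.6e-06, the smallest this test can give). It was also positive in 18 of 18 bulls against chromosome 19 alone, by 6.20 points on average (exact p = 7.6e-06). With the means taken over 2000 bp tiles in gene and genome, it was 3.56 points and positive in 16 of 18 bulls (exact p = 4.6e-05). These tests show that the bulls agree, and not that DNAH2 is unusual among genes. By mean it was number 10 of the 25 fine-mapped genes.

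Bulls listed very different parts of the gene. H01 listed 111 positions and H08 listed 1703, with a median of 460.5. None of the 2420 positions was listed by all 18 bulls, the most shared was listed by 17, and 580 were listed by a single bull. Coverage, given for 6 bulls only, had a median of 11 reads per DNAH2 position in each of them and a mean of 11.1 to 11.9 against 12.8 to 13.7 over their whole files. Only positions with at least 10 reads are listed, and depth is unknown for the other 12 bulls. The 2 strands of a CpG, where 1 bull listed both, differed by a median of 6.25 points over 919 pairs, and 83.2% of pairs lay within 10 points.

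The share of a bull's listed positions that lay in the 4 low domains ran from 3.29% in L08 to 10.7% in L06. Since the domains were defined as low in these same values, a bull that lists more of them has a lower mean by construction, and no test of that relation is given. Against the number of positions in a bull's whole file, the Pearson's r of the DNAH2 mean over 18 bulls was -0.32 (permutation p = 0.19), Spearman's rho was -0.25 (permutation p = 0.31), and r was -0.04 without H08 and L06. Pearson's r was 0.22 in the 6 bulls whose files list coverage and -0.43 in the other 12. Against the number of positions that a bull listed in DNAH2, r was -0.25 (permutation p = 0.31) and rho was -0.35 (permutation p = 0.15). Without H08 and L05 that r was -0.29. In all, 3 such relations were computed, and the Benjamini-Hochberg adjusted permutation p of Pearson's r was 0.46 for both given here.

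Means over the positions outside the domains ran only from 92.1% in L02 to 95.7% in H04. A least-squares fit of percent on position and bull, over all 18 bulls, gave each bull a level from which the effect common to a position was removed. The 580 positions of a single bull add nothing to it, and a bull that is high in 1 place and low in another is not adjusted for that, as with L01, the highest in the first domain and the lowest in the third among bulls with at least 5 positions there. These position-adjusted levels spread from -1.11 points in L02 to 1.74 points in H04 around the average of the bulls, with an SD of 0.823 points. Against the number of positions in the file they gave no detectable relation (r = 0.0024, permutation p = 0.99, rho = 0.046, permutation p = 0.86, and r = 0.03 without H08 and L06).

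The 5 traits ask whether sperm methylation differs between the bulls of the high and low groups. Over the gene with its flanks, the mean separated the groups for CCR and BDE, and without the flanks it did not. For CCR the high bulls H08, H09 and L06 read 87.8%, 85.7% and 84.1%, and the low bulls H06, L08 and L09 read 90.7%, 90.7% and 91.8%. The groups did not overlap, and the difference was -5.19 points (exact permutation test, two-sided, n = 3 and 3, p = 0.10, the smallest this design allows). For BDE the high bulls H02, L03 and L08 read 88.7%, 90.6% and 90.7%, and the low bulls H05, H09 and L02 read 88.2%, 85.7% and 88.2%. This difference was 2.59 points (exact permutation p = 0.10), and adjusted over the 5 traits p was 0.25 for both. H09 is high for CCR and low for BDE, and L08 is low for CCR and high for BDE. The CCR and BDE separations are thus not independent.

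Without the 2000 bp flanks, the CCR groups overlapped, at 89.7% to 91.3% in the high and 90.7% to 93.0% in the low bulls, and differed by -1.77 points (exact permutation p = 0.20). The BDE groups overlapped as well, at 90.7% to 92.5% and 90.05% to 94.1%, with a difference of 0.11 points (exact permutation p = 0.90). At the positions that every bull of the comparison listed, the difference was -1.31 points over 18 positions for CCR (exact permutation p = 0.60) and 0.56 points over 15 positions for BDE (exact permutation p = 0.80).

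The share of listed positions in the low domains separated the CCR groups in the other direction. It was 9.36% to 10.7% in the high bulls and 3.29% to 4.23% in the low bulls. The BDE shares overlapped, at 3.29% to 6.46% in the high and 5.19% to 9.36% in the low bulls. With the position-adjusted level, the CCR difference was -0.19 points (exact permutation p = 0.80) and the groups overlapped. For BDE it was 0.26 points (exact permutation p = 0.80). Neither sign was stable with a bull left out, as the CCR value ran from -0.70 without L08 to 0.24 without L09 and the BDE value from -0.49 without L03 to 0.67 without L08. Over the tiles that every bull of the comparison covered, the CCR difference was 1.15 points and the BDE difference -0.73 points, both of opposite sign to the difference over all positions.

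**Figure D3:**
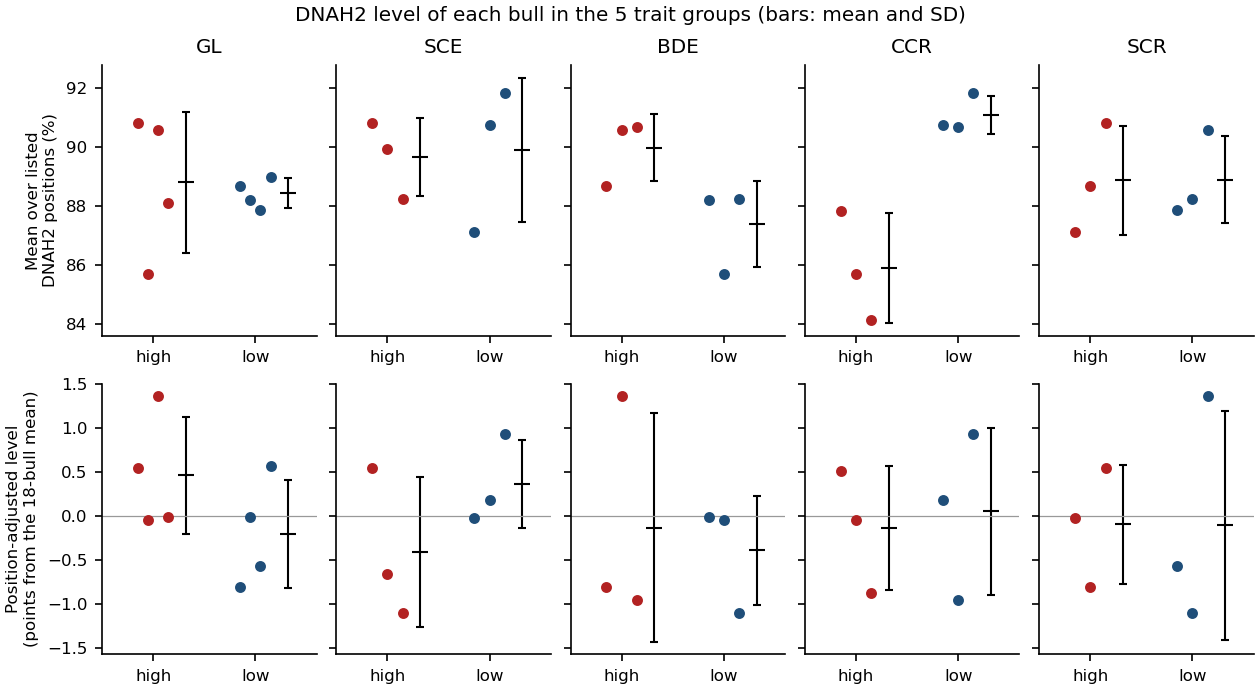
DNAH2 level of each bull in the high and low group of the 5 traits. Upper row: mean percent over all listed positions. Lower row: position-adjusted level, in points from the average of the 18 bulls. Points are bulls, and bars are the group mean and SD. The CCR and BDE groups are apart in the upper row and overlap in the lower row.

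The other 3 traits showed no separation. For GL the high bulls H03, H09, L03 and L05 read 90.8%, 85.7%, 90.6% and 88.1%, and the low bulls H02, H05, L01 and L07 read 88.7%, 88.2%, 87.9% and 89.0%. The low bulls lay inside the range of the high bulls, and the difference was 0.36 points (exact permutation p = 0.91, n = 4 and 4, where 0.029 is the smallest possible). Within the bulls whose files list coverage, 2 high and 2 low, the GL difference was 2.41 points, and within the other 2 and 2 it was -1.69 points. For SCE the difference was -0.24 points and for SCR -0.02 points (exact permutation p = 1.0 for each, n = 3 and 3). Adjusted over the 5 traits, the p-values of these 3 traits were 1.0. Within the 2 file layouts, the BDE difference was 1.38 points with coverage (2 against 1 bull) and 3.73 points without (1 against 2), and the SCE difference was 2.39 (2 against 1) and -1.35 points (1 against 2). All CCR bulls had files without coverage, and all SCR bulls had files with it.

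At the scale of 2000 bp tiles, a logistic test on methylated and unmethylated reads was fitted to every tile of the genome that each bull of a comparison covers. A tile was called at q under 0.01 and a difference over 5 points. For SCR, where the files of all 6 bulls give coverage, the listed reads were used. In the other 4 traits each position of every bull was taken as 10 reads, the least it can have, also in the bulls whose files give coverage. For GL 3 of 40 DNAH2 tiles were called, against 8.75% of all tested tiles in the genome. The SCE comparison called 1 of 30 (genome 6.18%), BDE 2 of 34 (genome 7.57%), CCR 3 of 40 (genome 11.1%) and SCR 2 of 26 (genome 8.68%). The shares of DNAH2 tiles called were 7.5% for GL, 3.33% for SCE, 5.88% for BDE, 7.5% for CCR and 7.69% for SCR. Each was below the genome's in these fits. On so few tiles, and with bulls shared between traits, this is not read as a deficit. Among the alternative settings, 14 of 71 gave a share above the genome's, 7 of them for SCE. The end domains were seldom tested, since few tiles there were covered in every bull.

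The 11 calls fell in 9 tiles. In 2 of the 11, both for BDE, the bulls of the groups did not overlap. Over all 170 DNAH2 tests, called or not, the groups did not overlap in 12. These were 2 of 40 for GL, 2 of 30 for SCE, 2 of 34 for BDE, 5 of 40 for CCR and 1 of 26 for SCR. The share over the genome's tiles was not computed. With bulls grouped at random, 3 and 3 bulls separate fully with a probability of 0.10, and 4 and 4 with 0.029. The counts are therefore not read as a result about DNAH2. With each bull left out in turn, 10 of the 11 calls were lost at least on 1 occasion, and only chr19:28082001-28084000 for BDE kept its call. There were 24 such losses, and in 17 of them the difference was still over 5 points, so that q alone had crossed the limit. An F test that lets bulls vary, and limma on log2 ratios, called no tile for any trait, in DNAH2 or in the genome (0% called for each). Whether either test could reach the q limit with 3 or 4 bulls per group over so many tiles was not tested. The counts of 0 therefore cannot decide whether any tile differs. Without adjustment, 4 of the 170 DNAH2 tests had p under 0.05 and over 5 points of difference by the F test and 8 by limma, which is 2.35% and 4.71%, against 2.88% and 3.55% of the genome's. The smallest limma adjusted p over the 170 tests was 0.98. The median of the logistic statistic was 2.40 to 3.07 times that of its null distribution over all tiles, while the spread between bulls is not modelled by it.

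Many positions of a tile were listed in only 1 of the groups, and the test was therefore repeated, stratified by position, on those positions that both groups listed. The 2 strands of a CpG counted as separate positions, so a CpG that the groups listed on opposite strands was not shared. At these shared positions the difference was smaller in 9 of the 11 calls, equal within 0.01 points in 1 and larger in 1. In 2 calls it had the opposite sign. The calls were chosen for a large difference over all positions, so some shrinkage on a part of them comes from that choice. How often the difference was smaller in the uncalled tiles was not counted. Only chr19:28106001-28108000 was called, for CCR, which is 1 of 40 DNAH2 tiles against 4.4% of the genome's tiles. The counts of the other traits were 0, against 2.19% of the genome's tiles for GL, 1.31% for SCE, 1.6% for BDE and 2.51% for SCR.

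**Figure D4:**
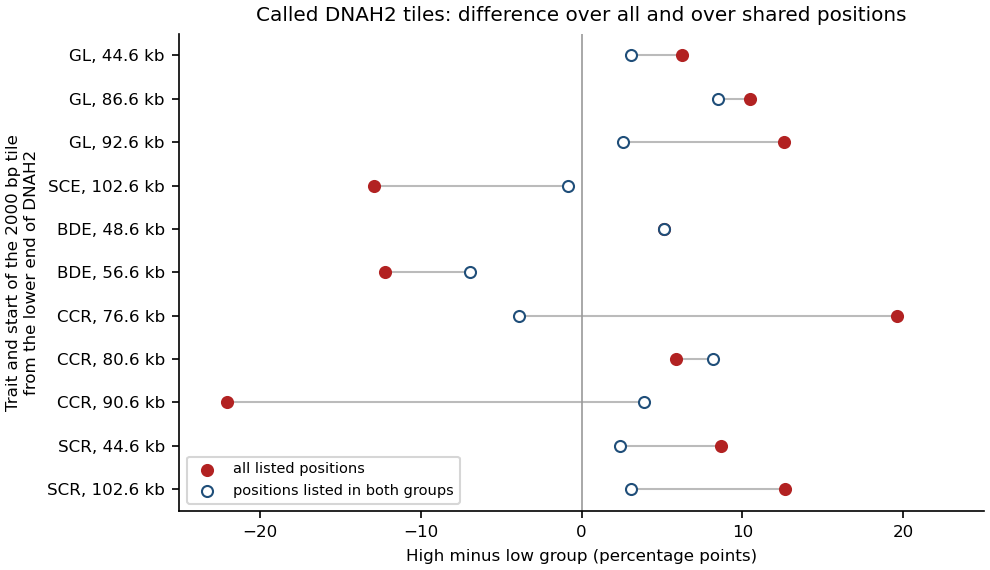
Difference between high and low bulls, in percentage points, in the 11 calls of DNAH2 tiles. Filled points use all listed positions and open points those listed in both groups, and each row is a trait and the start of the tile in kb from the lower-coordinate end of the gene. In the BDE tile at 48.6 kb both points coincide at 5.11, and both CCR tiles at 76.6 and 90.6 kb change sign.

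For GL, the tile with the largest pooled difference was chr19:28118001-28120000, which overlaps the upper end of the third domain, at 12.6 points (q = 0.00012). The high bulls H03, H09, L03 and L05 read 84.8%, 85.0%, 75.0% and 79.99%, and the low bulls L01 and L07 read 77.0% and 79.3%. Bulls H02 and H05, also low, read 20% and 35.3%, from 2 and 5 listed positions, of which 1 and 3 lay in the domain. Their positions outside it averaged 40% (1 position) and 43.2% (2 positions). Thus 2 of the 4 low bulls lay within the range of the high bulls. At the 16 shared positions the difference was 2.58 points (q = 0.54), and without H05 the call was lost at 7.01 points (q = 0.056), while without L07 the difference was 18.9 points.

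In the GL tile chr19:28112001-28114000, the high bulls read 100%, 91.1%, 100% and 95.6%, and the low bulls H02, H05, L01 and L07 read 89.3%, 89.8%, 71.8% and 95%. The difference was 10.5 points (q = 0.0040), and 8.47 points at 9 shared positions (q = 0.081). It rested on CpG 28112851, where H09 read 100% and the low bulls H05 and L01 read 7.14% and 0%. Without that CpG the difference was 0.68 points, and without L01 it was 4.78 points (q = 0.18). The call was also lost without H03, L03 or L05, at 9.78, 9.34 and 10.3 points (q = 0.014 to 0.026), and without H05 the difference was 16.1 points.

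The tile chr19:28070001-28072000 was called for GL, at 6.25 points (q = 0.0034), and for SCR, at 8.64 points (q = 0.00072). In GL the high bulls H03, H09, L03 and L05 read 95.8%, 100%, 98.2% and 97.1%, and the low bulls H02, H05, L01 and L07 read 96.7%, 95.7%, 85.1% and 90.6%. The comparisons share 4 bulls. H03 is high and L01 low in both, while H02 and L03 stand on opposite sides. For SCR the high bulls read 98.0%, 96.7% and 95.8% and L01, L02 and L03 read 85.1%, 86.0% and 98.2%. At shared positions the differences were 3.08 points in GL (q = 0.45) and 2.41 points in SCR (q = 0.60). The GL call was lost without L05, at 6.15 points, and without L01, at 3.06 points. The SCR call was lost without H03, at 9.49 points, and without L02, at 6.89 points.

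The tile chr19:28128001-28130000 held the short low stretch around position 28129099, and was called for SCE and SCR. The SCE high bulls H03, H07 and L02 read 77.4%, 84.5% and 63.8%, and the low bulls H01, H06 and L09 read 97.6%, 81.7% and 93.5%. Here the difference was -12.9 points over all positions (q = 0.00033) and -0.85 points at 16 shared positions (q = 0.77). The 4 positions listed only in high bulls averaged 41.1%, and the 3 listed only in low bulls averaged 85.9%. Among the former were 28129100 and 28129135, of whose CpGs the low bull H06 listed the other strand. For SCR the high bulls H01, H02 and H03 read 97.6%, 86.3% and 77.4%, and the low bulls L01, L02 and L03 read 71.0%, 63.8% and 94.5%. That difference was 12.6 points (q = 0.00060) and 3.05 points at shared positions (q = 0.40). With each listed position weighted equally it was 11.3 points, and 3.87 points without the CpG of position 28129135, where H03 read 54.5% and L01 and L02 read 0%. The comparisons share 3 of their 6 bulls. H03 is high in both, L02 is high in SCE and low in SCR, and H01, which had the highest value in each, is low in SCE and high in SCR. The SCE call was lost without L02, at -6.60 points, or H01, at -9.98 points, and the difference was -20.2 points without H06. The SCR call was lost without H01, at 8.64 points, or L02, at 3.62 points, and the difference was 21.6 points without L03.

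The BDE tile chr19:28082001-28084000 separated the groups, with H02, L03 and L08 at 86.7%, 82.1% and 81.3% against H05, H09 and L02 at 95.6%, 94.2% and 94.6%. Its difference was -12.2 points (q = 0.00015), and -6.94 points at 11 shared positions (q = 0.20). One position, 28083428, carried most of it. The high bulls L03 and L08 read 20% and 0% there, and the low bull L02 read 90.9%. Without this CpG the tile differed by -2.52 points, and 7 of the 11 shared positions were higher in the high bulls.

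The other BDE tile, chr19:28074001-28076000, read 100%, 98.4% and 97.4% in H02, L03 and L08 and 94.7%, 93.2% and 91.1% in H05, H09 and L02. The groups did not overlap. Its difference was 5.11 points both over all positions (q = 0.0040) and at 16 shared positions (q = 0.17). Of the 16 positions, 9 were higher in the high bulls, 3 lower and 4 equal, and the call was lost without L03, H09 or L02, at 4.69, 5.23 and 4.22 points.

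For CCR, the tile that was also called at shared positions, chr19:28106001-28108000, read 97.7%, 86.7% and 98.2% in H08, H09 and L06 and 91.8%, 91.0% and 91.1% in H06, L08 and L09. H09, with 2 listed positions, was below all 3 low bulls, so the groups overlapped. The difference was 5.89 points over all positions (q = 0.0097) and 8.16 points at 18 shared positions (q = 0.0069). It was positive at 13 of these, negative at 3 and 0 at 2, and 12 of the 18 were listed by 1 bull of each group. limma gave it an unadjusted p of 0.27 and an adjusted p of 1.0, and the F test an unadjusted p of 0.098. Without H08 the difference over all positions was 3.63 points (q = 0.30). The call was also lost without L06, H06, L08 or L09, with differences of 5.71 to 6.08 points and q of 0.020 to 0.036, and it was kept without H09. It was lost as well with Benjamini-Hochberg adjustment in place of the SLIM type (adjusted p = 0.015).

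The other CCR tiles covered the partly methylated domains. In chr19:28102001-28104000, on the second domain, the high bulls H08, H09 and L06 read 54.4%, 72.3% and 75.0% and the low bulls H06, L08 and L09 read 43.3%, 54.6% and 30%. The difference was 19.6 points over all positions (q = 5.0e-05) and -3.89 points at 9 shared positions (q = 0.57). Of the values in the tile, 60.3% lay inside the domain in the high bulls and 88.9% in the low bulls, and the call was lost without L09, at 11.7 points. Without H08 the difference was 34.7 points.

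In chr19:28116001-28118000, on the third domain, the high bulls read 54.0%, 82.4% and 90.1% and the low bulls 93.3%, 20% and 85.3%. The difference was -22.0 points with reads pooled (q = 7.9e-06), 9.31 points between the means of the bulls, and 3.85 points at 8 shared positions (q = 0.51). H08 supplied 48 of the 64 values of the high bulls, 33 of them in the domain, and the low bull L08 supplied a single position. Without H08 the pooled difference was 1.81 points, so 1 library set its sign, and the call was lost without H08 and, at -14.0 points, without H06.

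Single CpGs far from their neighbours turned up throughout the methylated body. Outside the low domains, 979 CpGs were listed in at least 4 bulls, and 87.7% of them spanned at most 20 points between bulls. At 17 CpGs the bulls spanned at least 60 points, a limit set after the values were seen. The 4 CpGs around each of these averaged 83.8% to 97.8%. CpG 28083428 read under 40% in H07, H08, L03 and L08 and above 80% in 4 other bulls of 9. CpG 28062627 read under 40% in 3 of 12 bulls, H03, L02 and L04, and above 80% in 5.

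At some of these CpGs a single bull stood apart. CpG 28109621 read 0% in L05 and above 80% in the other 9 bulls, and CpG 28111515 read 10% in L05 and above 80% in the other 8. At CpG 28128395, H07 read 7.14% and H06 33.3%, and the median of 13 bulls was 90%. At CpG 28112851 both strands were listed in H04, at 100% and 90%, in L01, at 0% on both, and in L06, at 81.8% and 36.4%. No genotype of these bulls was used here, and whether a sequence variant lies at any of these CpGs was not tested.

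**Figure D5:**
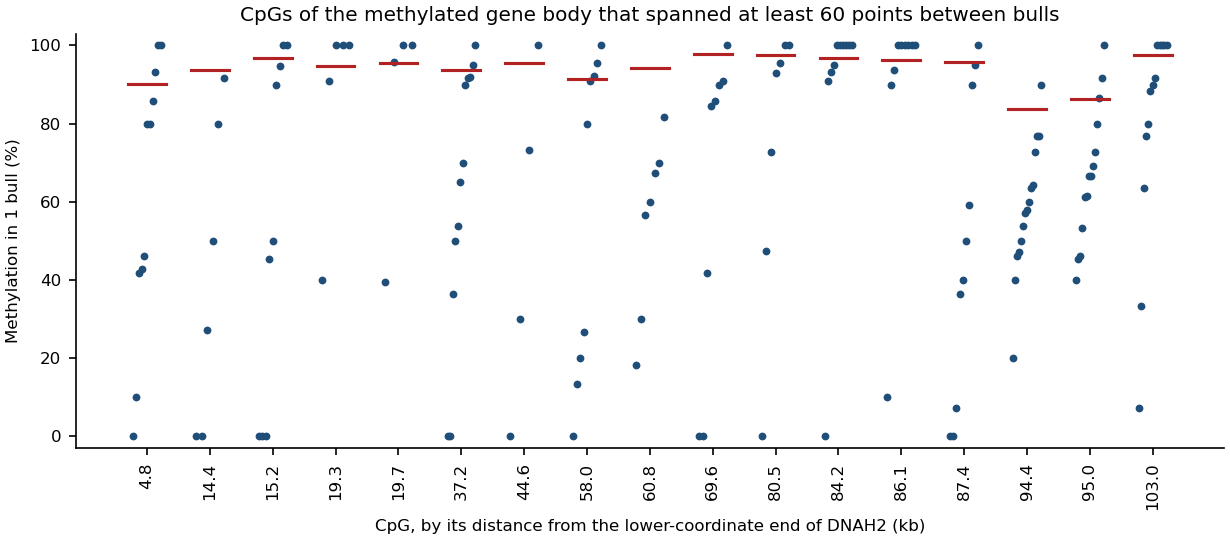
Percent methylation of each bull at the 17 CpGs outside the low domains that spanned at least 60 points between bulls, ordered by distance in kb from the lower-coordinate end of DNAH2. Points are bulls, with both strands averaged, and the line is the mean of the 4 neighbouring CpGs. Most CpGs have bulls near the neighbours' level and bulls far under it.

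No position was listed in all 18 bulls, so positions listed in at least 12 bulls were used to describe the most covered CpGs. There were 74, and 66 of them averaged above 80%. The lowest were 28120482 at 40.5% ± 16.6 (SD, n = 12), 28119791 at 58.4% ± 17.2 (SD, n = 15) and 28120390 at 62.9% ± 12.2 (SD, n = 15), all in the 3000 bp after the third domain. At 28119791 the bulls ran from 20% in L06 to 90% in L02 with a median of 57.9%. The widest spread was that of 28128395, 79.3% ± 29.0 (SD, n = 13). The 70 positions in those 3000 bp averaged 84.6%, with 21 of them between 20% and 80%. CpGs 28118415 and 28118497, near the edge of the domain, averaged 97.0% and 97.4%, so high and low CpGs lay among each other there.

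Across the 25 fine-mapped genes, DNAH2 was the tenth by mean methylation at 88.7%. CYSTM1, which encodes a small transmembrane protein, averaged 88.9% and lay just above it, and ARID4B, which encodes a chromatin protein, averaged 86.2% and lay just below. These neighbours overlapped with DNAH2 in their ranges over bulls. The genes whose bull means were most like those of DNAH2 were ARID4B (Pearson's r = 0.60 over 18 bulls), NRG2, a neuregulin growth factor (r = 0.57 over 18 bulls), and SCRT1, a transcriptional repressor (r = 0.44 over 10 bulls). The points share their libraries and depth, and the r values are a description. MYH10 and NDEL1, a myosin and a dynein regulator on the same chromosome, had r of 0.40 and 0.15.

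H04 and L04, the bulls without a group, read 89.3% and 87.8% over DNAH2. Their files list 11977528 and 11976602 positions, and their DNAH2 levels adjusted for position were 1.74 and -0.71 points from the average. These were the highest and the fifth lowest of the 18 bulls.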

How the data were processed

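Whole genome bisulfite sequencing of sperm DNA from 18 bulls was analysed. Per the labels and the study's methods, the authors trimmed reads (FastQC 0.11.2, Trim Galore 0.4.0), mapped them to UMD 3.1 with Bowtie2 and extracted methylated cytosines with Bismark 0.14.5. They kept positions with at least 10 reads, strands apart. The deposited values are percent methylation per position, and the deposited files of 6 bulls add counts of reads (10 to 100).

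DNAH2 and the gene lists were chosen with earlier results of these data known. Tiles of 2000 bp that every bull of a comparison covers were tested across the genome by logistic regression with q values of the SLIM type, called at q under 0.01 and over 5 points. The listed reads were used for SCR. For the other traits each position of every bull counted as 10 reads, which understates depth, so the test rests on an assumed precision. Alternatives were an F test with overdispersion, limma 3.58.1 (R 4.3.3) on log2 ratios, and a Cochran-Mantel-Haenszel test at positions listed in both groups. The log2 ratios were of methylated to unmethylated reads per tile and bull, with 1 added to each count. These were the same listed or assumed reads, so the ratios also depend on how many positions a bull lists. Gene-wide levels were compared over bulls by two-sided exact permutation tests, with 1 value per bull, and Benjamini-Hochberg adjustment over 5 traits. Correlations used 100000 permutations. The test scripts were tested on simulated data.

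Named tiles were those called, that of the fine-mapped variant, and the 3 lowest and 3 widest of those covered in all bulls. Likeness used the other 24 fine-mapped genes with at least 20 listed positions. No sequence or annotation of UMD 3.1 was used here, so other dynein genes and sperm markers were not analysed. The low domains, the position-adjusted level and the wide CpGs were chosen after seeing the data.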

Additional observations from a re-analysis of the deposited data

How the results depend on the processing

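Counts of called DNAH2 tiles moved with the test and with the number of tiles tested. The F test and limma called 0 for each trait, as did shared positions except for CCR, at 1. Tiles with at least 3 positions per bull gave 1 of 14 for GL (genome 8.77%), 1 of 14 for BDE (8.15%) and 0 of 21 for CCR (11.4%). These were fewer tiles than the 40, 34 and 40 tested in the fits given above. Differences over 10 points gave 1 of 34 for BDE (genome 5.53%) and 1 of 26 for SCR (5.64%). Shifted tiles gave 2 of 29 for SCE (genome 6.22%) and 1 of 37 for BDE (7.49%). With 20 reads per position, 5 of 30 were called for SCE and 6 of 40 for CCR. At 20 reads these were 16.7% and 15% of the DNAH2 tiles, against 17.1% and 20.4% of the genome's. Shares were above the genome's in 14 of 71 settings, among them 10.3% against 8.81% (GL, shifted tiles), 13.3% against 6.2% (SCE without H03), 10.8% against 7.06% (BDE without H05) and, from 8 tiles, 25% against 9.33% (SCR, at least 3 positions). Leaving out a bull gave 1 to 4 calls for GL, SCE, BDE and CCR and 0 to 3 for SCR. The lows for GL were 1 of 40 tiles without L05 (genome 7.84%) and without L01 (8.92%). For BDE they were 1 of 39 without L03 (6.93%) and 1 of 34 without H09 (7.19%). CCR gave 1 of 40 without H08 (16.9%), SCE 1 of 46 without H01 (6.8%) and SCR 0 of 26 without L02 (8.77%). The SCE count was 2 without H07, L02, H06 or L09 (genome 6.17% to 6.49%). The highs were 4 of 40 for GL without H09 (9.12%) and 4 of 30 for SCE without H03 (6.2%). They were 4 of 37 for BDE without H05 (7.06%) and 4 of 42 for CCR without H09 (11.1%). Other settings stayed within 1.5 times of the count.

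Gene-wide differences reversed as follows. The gene without flanks gave -0.086 points for GL, 1.17 for SCE and 1.08 for SCR, and flanks of 10000 bp gave -0.049, 0.51 and 0.77. Averaging strands gave -0.071 for GL. Shared tiles gave -0.73 for BDE, 1.15 for CCR and 0.17 for SCR. Outside the domains the differences were -0.038 for BDE, 0.18 for CCR and 0.81 for SCR, the SCR difference was 0.0083 position-adjusted, and positions with at least 15 reads gave 5.52 for SCR. Without a change of sign, the gene without flanks gave 0.11 for BDE and -1.77 for CCR. Flanks of 10000 bp gave 2.91 for BDE and -5.32 for CCR, and averaging strands gave 2.76 and -5.66. With these wider flanks or averaged strands, the BDE and CCR groups stayed apart (exact permutation p = 0.10 for each). Positions listed in every bull of a comparison gave 1.39 for GL, -1.90 for SCE, 0.56 for BDE, -1.31 for CCR and, from 1 position, -0.059 for SCR. Shared tiles gave 1.29 for GL (exact permutation p = 0.086), the position-adjusted level 0.67 for GL and -0.77 for SCE, positions outside the domains -1.23 for SCE, and averaging strands -0.31 for SCR. No GL value had an exact p under 0.05, which the other traits cannot reach (smallest 0.10), and the cause was not tested. Position-adjusted with a bull left out, values ran from 0.37 to 0.93 for GL, -1.25 to -0.42 for SCE and -0.49 to 0.74 for SCR. Leaving out a bull gave -0.31 to 1.39 for GL (-0.31 without H03, -0.23 without L03), -1.62 to 0.72 for SCE (0.47 without L02, 0.19 without H06, 0.72 without L09), 1.75 to 3.24 for BDE, -6.16 to -4.31 for CCR and -0.99 to 0.85 for SCR (0.85 without H01, 0.08 without H02, 0.82 without L03).

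DNAH2 stayed above the genome mean under each setting, by 6.67 to 7.19 points with a bull left out. The relation with listed positions was r = 0.0024 position-adjusted. Of 141 tested differences in called tiles under an alternative, 80 kept the call, 58 lost it and 3 reversed. Benjamini-Hochberg adjustment lost 1 call, tile 28106001 for CCR. Without the CpG of largest difference, where no test was run, 5 of the 11 calls differed by under 5 points. The reversed values were -3.89 and 3.85 at shared positions in tiles 28102001 and 28116001 (CCR), and 1.81 without H08 in the latter, whose values with a bull left out ran from -27.4 to 1.81. For SCR at 15 reads per position, 13.8% of 13478 genome tiles were called, but no DNAH2 tile was covered in all 6 bulls, so there is no count. No position was listed in all 18 bulls. No paired analysis was possible because the bulls are distinct animals, and the number in a bull's name marks no shared animal, litter or batch in the labels. Depth, a mean of 11.1 to 11.9 reads per DNAH2 position in the 6 bulls that list it, limits single positions: a reading of 0% allows up to 30.8% (exact binomial 95% interval at 10 reads, counting error only).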
